A study of Arabidopsis thaliana with 9 samples.

Results

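The expression of Arabidopsis genes under 150 mM NaCl was compared with that of control seedlings after 6 h, on 3 arrays of NaCl-treated and 3 arrays of control plants, which are 6 of the 9 arrays in the study. The arrays were chosen by their treatment labels alone. All plants were whole Arabidopsis thaliana seedlings of the Columbia ecotype (Col-0), 4 weeks old, grown in pots of artificial soil that were watered with fresh water. The treated plants received 150 mM NaCl for 6 h, and the control plants were watered only and collected in parallel, which the methods chose because of the circadian clock. The labels give a long day as the light cycle and the methods a natural photoperiod. Roots and shoots were harvested together, so a change within an organ and a change in the share of an organ cannot be told apart, nor can fewer cells of a type and less RNA per cell. According to the methods, seedlings given the same treatment formed 1 pool, from which 3 portions were taken, while the design text speaks of 3 experiments with different plants. The p-values therefore measure the spread between these arrays, which may be that of portions of 1 pool.

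The arrays were Agilent oligo arrays of 1 colour, on which the brightness of a spot measures the RNA bound by its probe. The median intensity was 126 to 147 on the NaCl arrays and 127 to 182 on the control arrays, and 69.15% to 72.11% of the probes on the NaCl arrays, against 70.2% to 71.0% on the control arrays, were well above the background. Non-uniform spots, which were left out, numbered 205 to 223 on the NaCl arrays, against 992, 1141 and 1 on control replicates 1, 2 and 3. All 3 NaCl arrays shared a slide and a scan 235 days earlier than that of the control arrays, which shared another slide, so treatment, slide and scan day cannot be told apart in any result below. Array-to-array correlations of the log2 signals were 0.944 to 0.971 within NaCl, 0.941 to 0.971 within the control and 0.819 to 0.904 between the groups. All values below are log2 signals after quantile normalization over the 6 arrays. A fold change is the difference of the group means on the log2 scale, NaCl minus control.

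Salt reaches a plant first as a loss of water uptake and later as an accumulation of sodium ions. Cells that lose water make abscisic acid (ABA), a hormone that binds PYR/PYL receptors, which then hold back the type 2C protein phosphatases and so free SnRK2 kinases to switch on ABF factors and the genes of water stress. Sodium is pumped out of root cells by SOS1 (AT2G01980) and into vacuoles by NHX exchangers. Growth, photosynthesis and defence compete for the same resources, and their genes are known to respond to water stress as well.

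Expression differed between NaCl and control arrays at 4816 of 22594 genes tested, or 21.3%, at an adjusted p under 0.05 from limma and a fold change of at least 2. Of these, 2089 genes (9.25% of those tested) were upregulated and 2727 genes (12.1%) were downregulated. Upregulated genes made up 43.4% of the called genes, and 31.4% when the arrays were not scaled to each other. The median log2 fold change over all genes was -0.105, and -0.304 without scaling, so that changes are to be read relative to that shift. All NaCl arrays lay above all control arrays at 5178 genes (22.9%) and below them at 6850 genes (30.3%). The median SD between arrays of a group was 0.283 with NaCl and 0.252 in the control on the log2 scale. When each array was left out in turn, 1174 of the upregulated and 1302 of the downregulated genes were called in all 6 fits. NaCl replicate 2 was the only array without which a total moved by more than 1.5 times, to 1384 upregulated and 1598 downregulated genes. For 395 called genes, no array of one group was well above the background, and only a bound of their fold change is given.

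**Figure D1:**
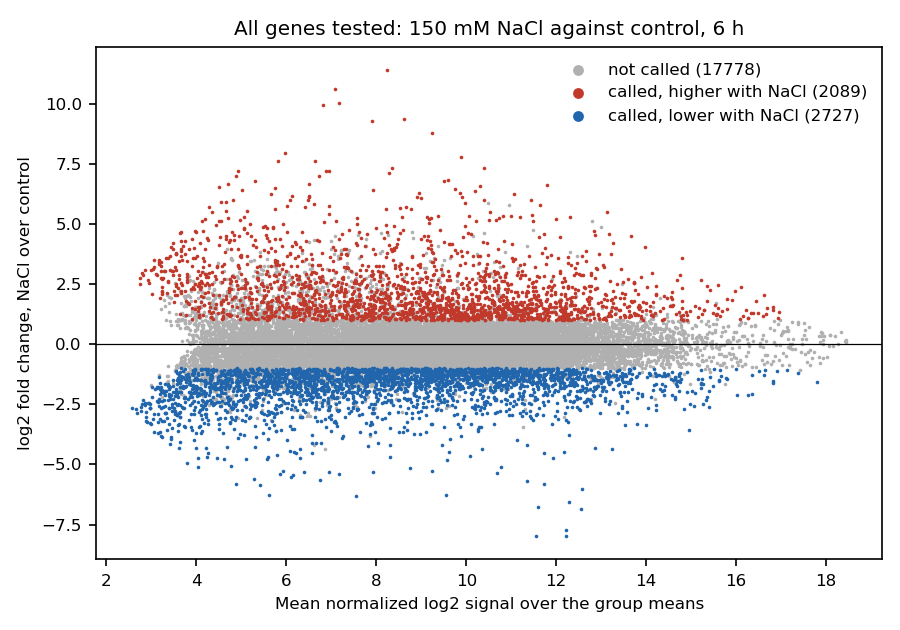
Log2 fold change of every tested gene (NaCl minus control, y axis) against its mean normalized log2 signal (x axis), with 1 point per gene. The 2089 genes called higher with NaCl are red, the 2727 genes called lower are blue, and the others are grey. Calls lie at all signal levels, and the largest changes at low signals include genes not well above the background in one group.

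Among genes with a matched locus that were well above the background on all 6 arrays, the largest increase was that of AT4G27654. Its log2 signals were 13.96, 13.91 and 13.04 with NaCl, against 5.19, 4.52 and 4.87 in the control. The arrays did not overlap, and the log2 fold change was 8.78 (standard error 0.32, limma adjusted p = 0.000459). It was followed by AT5G17350, at 7.78. The neighbouring locus AT4G27652 rose by 6.63 and AT2G27080 by 6.27, and the reference gives none of these loci a name. The third largest increase was that of CBF2 (AT4G25470), a factor known from the response to cold, which had signals of 14.04, 14.14 and 13.93 with NaCl, against 6.09, 7.01 and 7.09 in the control. Its NaCl arrays lay within a narrow range, far above every control array, and it rose by 7.31 (standard error 0.30, limma adjusted p = 0.000459). Also among the 12 largest were BAP1, a partner of the BONZAI proteins, which hold back cell death (6.35), ORA47, an activator of jasmonate synthesis genes (6.29), and DIP2, named after the DNA-binding phosphatase it interacts with (6.59). The remaining members were CBF3 (6.24), the lipid transfer protein gene LTP4 (6.80) and the unnamed loci AT5G33355 (6.83) and AT3G59930 (6.44).

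Among genes with a matched locus and well above the background on all 6 arrays, the 4 largest decreases belonged to plant defensins of the PDF1 family. These are small antifungal peptides. PDF1.2B (AT2G26020) had log2 signals of 8.03, 8.32 and 6.37 with NaCl, against 15.29, 14.50 and 16.84 in the control. The groups were separated by more than the whole range within either group, and PDF1.2B fell by 7.97 (standard error 0.75, limma adjusted p = 0.00248). PDF1.3 fell by 7.96, PDF1.2C fell by 7.71 and PDF1.2A (AT5G44420) fell by 6.83 on the log2 scale. These genes are nearly identical in sequence, so their probes may read each other's RNA and the 4 values are uncertain as separate genes. AACT1 (AT5G61160), named in the reference as an anthocyanin acyltransferase, fell to 5.84, 10.40 and 8.36 with NaCl, against 14.65, 14.53 and 15.73 in the control. Its NaCl arrays were far apart but all below the control, and the log2 fold change was -6.77 (standard error 1.12, limma adjusted p = 0.00932). BG3, a glucanase gene of the pathogenesis-related kind, fell by 6.29. Of the remaining 6, which the reference does not name, AT3G15356 fell by 6.54, AT3G16530 fell by 6.01 and AT4G24350 fell by 5.80 on the log2 scale, and AT3G16670, AT3G23550 and AT1G06830 had log2 fold changes of -5.70, -5.37 and -5.33.

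Across lists of genes grouped by process, the highest median log2 fold changes were those of the low-oxygen response (4.17), rapid stress-response factors (2.22), calmodulin-like genes (1.71), the heat shock response (1.52), suberin synthesis (1.47) and the synthesis and breakdown of ABA (1.32). The lowest were those of aliphatic glucosinolate synthesis (-2.86), defensins and their regulators (-2.19), flavonoid synthesis (-1.76), chlorophyll synthesis (-1.62), the cytokinin response (-1.32), plastid ribosomal proteins (-1.29) and starch synthesis (-1.26). The counts below are to be read against 9.25% of all genes upregulated and 12.1% downregulated. A gene was tested if it passed the background filter in either group. The medians and counts therefore include genes that were near the background in the other group, where fold changes are uncertain. The number of calls in a list that were made in all 6 fits with 1 array left out is given as the number that held. Where a list had calls in only one direction by limma, at most 2 of its genes passed an unadjusted p under 0.05 in the other, none did so at 2-fold by the t-test of the methods, and at most 1 was called in it with 1 array left out.

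**Figure D2:**
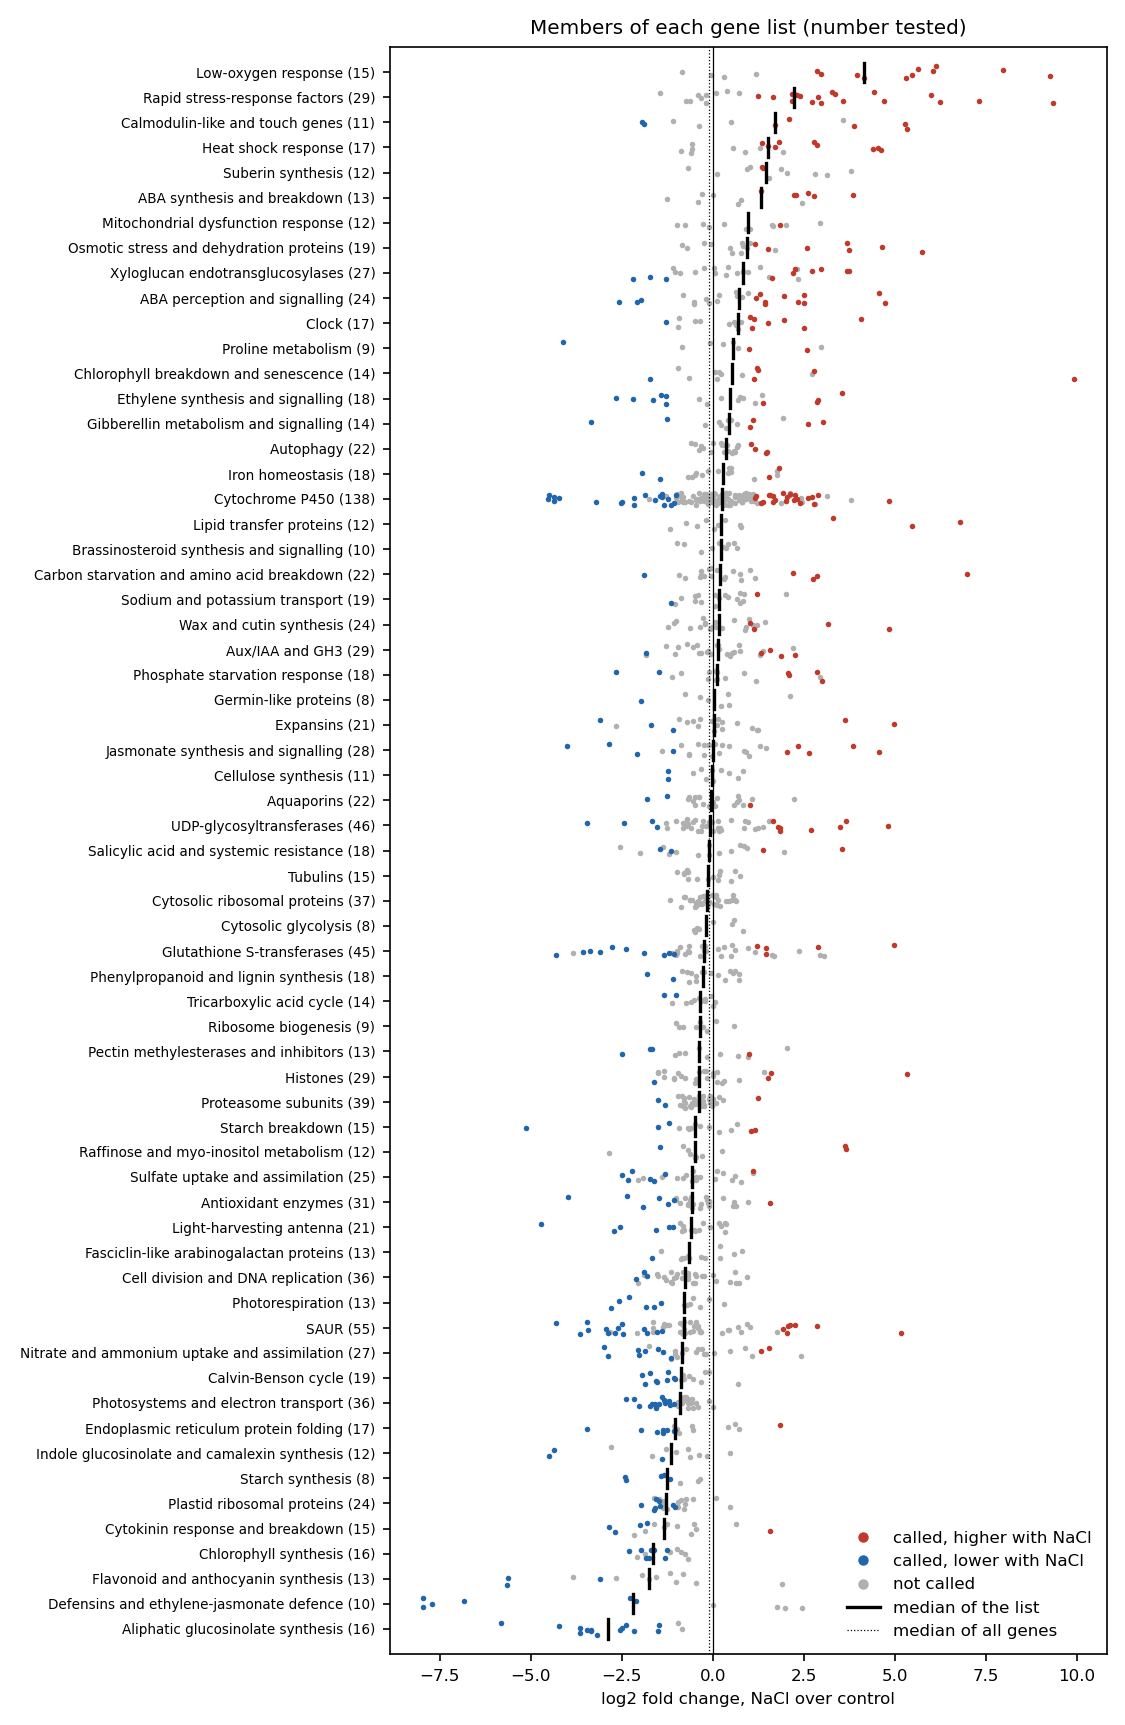
Log2 fold change (NaCl minus control, x axis) of each tested gene in each list of genes by process (y axis, with the number tested), with black bars at the list medians and a dotted line at the median of all genes. Red points are called higher with NaCl, blue points called lower and grey points not called, and the medians run from 4.17 for the low-oxygen response to -2.86 for aliphatic glucosinolate synthesis.

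Of 13 tested genes that make and break down ABA, 6 were upregulated and 0 downregulated, and 6 of the increases held. NCED3 (AT3G14440), which cleaves a carotenoid in the step that limits ABA synthesis, had log2 signals of 10.78, 10.94 and 10.11 with NaCl, against 8.68, 8.55 and 7.75 in the control. All NaCl arrays were above all control arrays, and NCED3 rose by 2.28 (standard error 0.34, limma adjusted p = 0.00716). Another dioxygenase gene, NCED9, was well above the background on no control array, with an increase of at least 4.14-fold (limma adjusted p = 0.000676). On the side of breakdown, CYP707A3 (AT5G45340), an ABA hydroxylase, had 13.03, 13.07 and 12.97 with NaCl, against 10.34, 10.05 and 10.29 in the control. The spread within a group was small beside its increase of 2.80 (standard error 0.15, limma adjusted p = 0.000676). CYP707A1 (AT4G19230), another hydroxylase, had 8.98, 9.25 and 8.74 with NaCl, against 7.25, 6.09 and 5.80 in the control, with no overlap, and rose by 2.61 (limma adjusted p = 0.00780). A further hydroxylase gene, CYP707A2, rose by 2.24 and the ABA exporter gene ABCG25 by 1.32 on the log2 scale, 2 genes named here to complete the list after their values were seen. The genes of the earlier and later steps, ABA1, ABA2, ABA3 and AAO3, had log2 fold changes between -0.40 and 0.70 and were not called.

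In ABA signalling, the phosphatases that restrain the pathway rose, and 3 receptor genes fell. The list had 10 upregulated and 3 downregulated genes of 24 tested, with 8 and 2 that held. HAI1 (AT5G59220), a type 2C phosphatase induced by ABA, had log2 signals of 12, 11.67 and 11.69 with NaCl, against 8.06, 6.94 and 6.18 in the control. The NaCl arrays were close together and all above the control, which spread more widely, and HAI1 rose by 4.73 (standard error 0.47, limma adjusted p = 0.00285). HAI2 (AT1G07430), from the same clade, had 9.70, 10.38 and 10.12 with NaCl, against 5.30, 6.67 and 4.54 in the control, and rose by 4.57 (limma adjusted p = 0.00431). PP2CA rose by 2.52, ABI2 rose by 2.5 and ABI1 rose by 1.2 on the log2 scale. These 5 phosphatase genes had NaCl arrays that lay above every control array. The receptor gene PYL6 (AT2G40330) had 6.27, 5.69 and 4.52 with NaCl, against 8.39, 7.68 and 8.15 in the control, without overlap, and fell by 2.58 (standard error 0.47, limma adjusted p = 0.0120). PYL4 fell by 1.98 (limma adjusted p = 0.00987). PYL5 had a log2 fold change of -2.09 and was called in 2 of the 6 fits that left out 1 array and lost without NaCl replicate 2 and control replicates 1, 2 and 3 (limma adjusted p of 0.0553 to 0.0730). The kinase genes SNRK2.2, SNRK2.3 and SNRK2.6 were not called, with log2 fold changes of 0.80, 0.18 and 0.98.

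**Figure D3:**
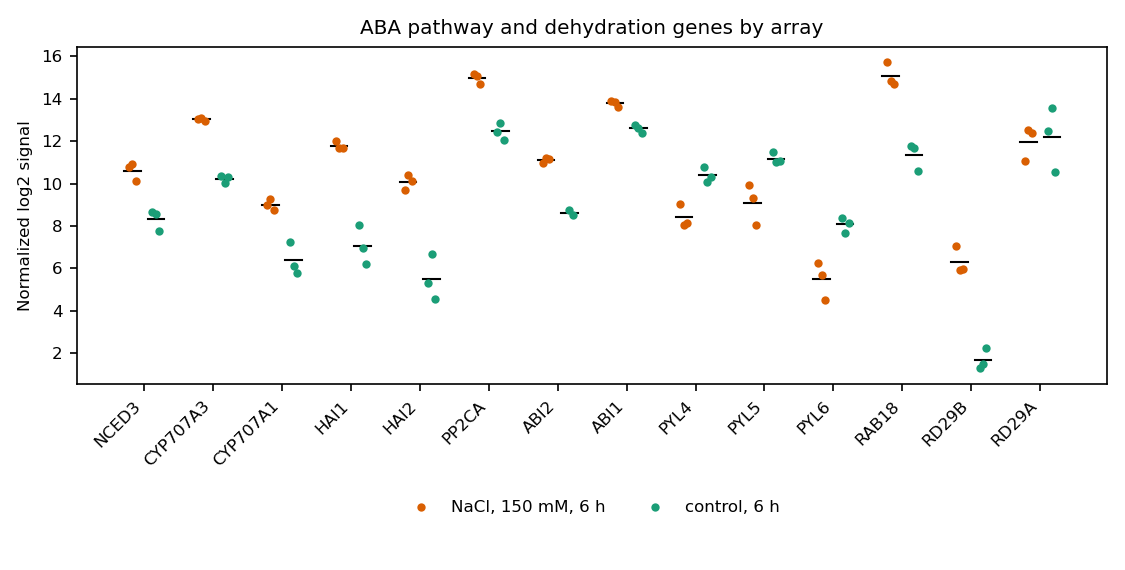
Normalized log2 signal (y axis) of 14 genes of the ABA pathway and of dehydration (x axis), with 1 point per array, NaCl left (orange) and control right (green), and bars at the group means. The phosphatases and hydroxylases lie higher with NaCl, PYL4, PYL5 and PYL6 lie lower, and RD29A overlaps between the groups.

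Proteins that protect dry cells gave a mixed picture. Of 19 tested genes, 7 were upregulated and 0 downregulated, and 4 of the increases held. In this list, 4 of the 19 passed the background filter in 1 group only. RAB18 (AT5G66400), a dehydrin induced by ABA, had log2 signals of 15.72, 14.83 and 14.71 with NaCl, against 11.76, 11.65 and 10.58 in the control. Its NaCl arrays lay well above the control, and it rose by 3.76 (standard error 0.42, limma adjusted p = 0.00369). RD29B (AT5G52300), whose promoter is known for its ABA-responsive elements, had 7.06, 5.92 and 5.98 with NaCl, against 1.28, 1.503 and 2.25 in the control. It was well above the background on no control array, so it was at least 6.83-fold higher with NaCl (limma adjusted p = 0.00204). RD29A (AT5G52310), the neighbour of RD29B, had 11.06, 12.52 and 12.36 with NaCl, against 12.50, 13.55 and 10.56 in the control. Its groups overlapped, with control replicate 3 the lowest and control replicate 2 the highest of all 6 arrays, and the difference of -0.23 was not larger than the spread (standard error 0.81, limma adjusted p = 0.846). The cold-regulated genes COR15A and COR15B, given after their values were seen, had log2 fold changes of -0.70 and -0.83 and were not called.

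Among the solutes that balance the outer salt, the gene of the limiting step to proline and a gene of the raffinose path rose, and a proline transporter gene fell. P5CS1 (AT2G39800), the enzyme of the limiting step of proline synthesis, had log2 signals of 13.00, 13.00 and 12.34 with NaCl, against 10.28, 10.67 and 9.57 in the control. The groups did not overlap, and P5CS1 rose by 2.601 (standard error 0.34, limma adjusted p = 0.00535). PRODH1 (AT3G30775), which breaks proline down, had 9.68, 8.77 and 9.06 with NaCl, against 8.36, 11.68 and 10.03 in the control, with overlapping groups (log2 fold change -0.85, limma adjusted p = 0.445). The proline transporter gene PROT3 (AT2G36590) had 5.85, 5.54 and 6.57 with NaCl, against 11.36, 9.76 and 9.15 in the control, and fell by 4.104 (standard error 0.60, limma adjusted p = 0.00694), with all NaCl arrays below the control. GOLS2 (AT1G56600), a galactinol synthase of the raffinose path, rose by 3.64 from 3 NaCl and 2 control spots (limma adjusted p = 0.00489), with log2 signals of 13.37, 14.12 and 13.33 with NaCl, against 9.55 and 10.38 on the 2 control arrays measured. GOLS1 (log2 fold change 0.25, limma adjusted p = 0.737) and MIPS1, the first enzyme of inositol synthesis (-0.49, limma adjusted p = 0.350), had overlapping groups. The raffinose list had 2 increases and 1 decrease among 12 genes, and its median was -0.48. With each array left out in turn, 1 of the 2 increases and 0 of 1 decrease held, and the number of increases was 1 without NaCl replicates 1 and 2 and control replicates 1 and 3, and the number of decreases was 0 without NaCl replicate 2 and control replicates 1 and 2.

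Few genes of sodium and potassium transport were called. Of 19 tested, 1 was upregulated and 1 downregulated, below the share of all genes in both directions. When single arrays were left out, 0 of 1 increase and 1 of 1 decrease held, and the number of increases was 0 without NaCl replicate 2 and control replicates 2 and 3, and the number of decreases was 2 without NaCl replicate 3. SOS1, the plasma membrane sodium exporter, had log2 signals of 8.60, 8.52 and 8.16 with NaCl, against 6.94, 7.81 and 8.32 in the control. Control replicate 3 lay within the NaCl values, and the log2 fold change of 0.74 was not called (standard error 0.37, limma adjusted p = 0.170). HKT1 (AT4G10310), which takes sodium out of the xylem, had 6.64, 5.29 and 5.63 with NaCl, against 2.33, 4.91 and 4.29 in the control. Its NaCl arrays were all above the control, but the control arrays spread over more than 2 units and the log2 fold change of 2.01 did not pass the test (standard error 0.72, limma adjusted p = 0.0784). CBL10 (AT4G33000), a calcium sensor of the SOS pathway in shoots, had 8.57, 8.31 and 8.48 with NaCl, against 9.73, 9.52 and 9.55 in the control, without overlap, and fell by 1.15 (standard error 0.16, limma adjusted p = 0.00590), a call that was lost with normexp background correction. The increase was that of KUP6, a potassium transporter (1.22), which was called in 3 of the 6 fits that left out 1 array and lost without NaCl replicate 2 and control replicates 2 and 3 (limma adjusted p of 0.0529 to 0.0664). Among 22 aquaporins, 1 rose and 2 fell, and none of these calls held. In the fits without 1 array, the number of increases was 0 without NaCl replicate 2 and control replicate 3 and 2 without NaCl replicates 1 and 3, and the number of decreases was 0 without NaCl replicates 1 and 2 and control replicates 1 and 2 and 1 without NaCl replicate 3. PIP2;1 (AT3G53420), a water channel of the plasma membrane, had 16.24, 16.09 and 15.94 with NaCl, against 16.19, 16.27 and 15.43 in the control, and TIP1;1 (AT2G36830), one of the vacuole membrane, had 13.71, 14.25 and 14.72 with NaCl, against 15.29, 15.00 and 14.04 in the control. Both overlapped between the groups. The other kept probes of PIP2;1 had log2 fold changes of -1.14 to 0.22, and those of TIP1;1 of -1.21 to -0.74.

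Factors of the first stress response were higher with NaCl. Of 29 tested genes, 19 were upregulated and 0 downregulated, and 17 of the increases held. RRTF1 (AT4G34410), an ERF factor of the redox response, had log2 signals of 13.70, 13.38 and 12.80 with NaCl, against 4.59, 3.08 and 4.16 in the control. Of all calls in the list it had the largest fold change, 9.35 (standard error 0.44, limma adjusted p = 0.000538), with 1 control array not well above the background. CBF1 (AT4G25490) had 12.87, 13.60 and 13.73 with NaCl, against 6.54, 7.34 and 8.32 in the control, and CBF3 (AT4G25480) had 13.70, 14.61 and 14.25 with NaCl, against 7.52, 8.38 and 7.94 in the control. They rose by 6.00 and 6.24, and as neighbours of similar sequence CBF1, CBF2 and CBF3 may share signal. ZAT10 (AT1G27730), a zinc finger repressor, had 16.74, 16.21 and 15.60 with NaCl, against 13.75, 12.75 and 13.39 in the control, and rose by 2.89 (standard error 0.38, limma adjusted p = 0.00535), with no overlap. WRKY33 (AT2G38470), a factor of pathogen defence, had 12.13, 12.31 and 11.97 with NaCl, against 13.26, 11.96 and 13.08 in the control with overlapping groups and was not called (log2 fold change -0.63, limma adjusted p = 0.223), while it was called without control replicate 2 (-1.03, limma adjusted p = 0.0302). WRKY53, WRKY18, WRKY6 and ZAT11, chosen after their values were seen, were not called either, with log2 fold changes between -0.40 and -0.17. The lowest log2 fold change in the list was -1.43, which was not called, and in 1 gene all NaCl arrays lay below the control.

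Calcium-binding proteins split in both directions, with 5 upregulated and 2 downregulated of 11 tested. Across the leave-one-out fits, 5 of the 5 increases and 1 of the 2 decreases held, and the number of decreases was 1 without NaCl replicate 2 and control replicate 3. CML37 (AT5G42380) had log2 signals of 13.42, 12.42 and 12.35 with NaCl, against 8.08, 6.56 and 7.53 in the control, and CML38 (AT1G76650) had 14.64, 14.68 and 14.51 with NaCl, against 11.57, 9.76 and 10.85 in the control. The NaCl arrays of both were well above the control, with increases of 5.34 (limma adjusted p = 0.00216) and 3.88 (limma adjusted p = 0.00395). CML23 rose by 5.29 and the touch gene TCH2 rose by 2.096 on the log2 scale. CML42 (AT4G20780), by contrast, had 8.02, 7.90 and 7.90 with NaCl, against 10.15, 9.18 and 10.18 in the control, and fell by 1.89 (limma adjusted p = 0.00839), without overlap. The touch gene TCH3 (AT2G41100) had 13.76, 13.21 and 13.16 with NaCl, against 16.14, 14.54 and 15.25 in the control, and its log2 fold change of -1.94 was called in 4 of the 6 fits that left out 1 array and lost without NaCl replicate 2 and control replicate 3 (limma adjusted p of 0.0588 to 0.0718).

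The heat shock list had 9 upregulated and 0 downregulated genes of 17 tested, and 5 of the increases held. Of the 17, 4 passed the background filter in 1 group only. HSFA2 (AT2G26150), a heat shock factor that is itself induced by stress, had log2 signals of 9.20, 8.70 and 8.08 with NaCl, against 6.52, 5.24 and 5.85 in the control, with every NaCl array above the control. It rose by 2.78 (standard error 0.42, limma adjusted p = 0.00738). The chaperone gene HSP70-4 (AT3G12580) had 12.39, 13.06 and 12.47 with NaCl, against 10.15, 9.72 and 9.43 in the control, and rose by 2.87 (limma adjusted p = 0.00256). HSP17.4 (AT3G46230), a small heat shock protein, had 8.23, 8.98 and 6.06 with NaCl, against 4.03, 2.95 and 3.12 in the control. Its NaCl arrays ranged widely and lay above the control, where 1 of 3 arrays was above the background (limma adjusted p = 0.0110). HSP101 (AT1G74310), the chaperone of acquired heat tolerance, had 9.11, 10.16 and 8.21 with NaCl, against 7.67, 7.26 and 7.12 in the control, and a log2 fold change of 1.81, and was called in 1 of the 6 fits that left out 1 array and lost without NaCl replicates 1 and 2 and control replicates 1, 2 and 3 (limma adjusted p of 0.0664 to 0.104).

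In the endoplasmic reticulum, where secreted proteins fold, the direction was the opposite. Of 17 tested folding genes, 8 were downregulated and 1 was upregulated, and 3 of the decreases held. The count of decreases was 3 without NaCl replicate 2, 4 without control replicate 3 and 5 without NaCl replicate 1 and control replicate 1. BIP3 (AT1G09080), the inducible chaperone of this compartment, had log2 signals of 6.47, 4.59 and 4.45 with NaCl, against 8.69, 7.92 and 9.21 in the control, with all NaCl arrays below the control, and fell by 3.44 (standard error 0.62, limma adjusted p = 0.0120). HSP90.7 (AT4G24190), its HSP90, had 12.45, 12.43 and 12.93 with NaCl, against 14.55, 14.33 and 14.87 in the control, and fell by 1.98 (standard error 0.23, limma adjusted p = 0.00385). The calreticulin gene CRT3 fell by 1.53 (limma adjusted p = 0.00939). The upregulated member was NAC062, a membrane-bound factor that is released under stress (1.86, limma adjusted p = 0.00415).

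Defensins and their regulators were lower with NaCl in 6 of 10 tested genes, 4 of which held, and none was called upregulated. The highest log2 fold change in the list was 2.45, which was not called. In 1 gene all NaCl arrays lay above the control, and 1 gene was higher at an unadjusted limma p under 0.05. PDF1.2A had log2 signals of 9.75, 9.90 and 7.75 with NaCl, against 16.00, 15.15 and 16.76 in the control, and every NaCl array lay far below the control. The decrease was 6.83 on the log2 scale (standard error 0.69, limma adjusted p = 0.00290). ORA59 (AT1G06160), the ERF factor that switches PDF1.2 on, had 9.67, 9.49 and 9.40 with NaCl, against 12.29, 10.56 and 12.54 in the control. It lay lower on all NaCl arrays, with a log2 fold change of -2.27, and was called in 1 of the 6 fits that left out 1 array and lost without NaCl replicates 1, 2 and 3 and control replicates 1 and 3 (limma adjusted p of 0.0522 to 0.0747). ERF1, a factor of the same branch that was named after its value was seen, had a log2 fold change of 0.01 and was not called.

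The list of jasmonate synthesis and signalling had 5 upregulated and 4 downregulated genes of 28 tested, and a median of 0.0212, which was -0.352 without scaling. By the fits on 5 arrays, 4 of the 5 increases and 2 of the 4 decreases held, and the number of decreases was 2 without NaCl replicates 1 and 3 and control replicates 1 and 2. The repressors JAZ7 (AT2G34600) and JAZ8 (AT1G30135) rose. JAZ7 had log2 signals of 12.99, 12.58 and 11.63 with NaCl, against 7.93, 8.04 and 7.49 in the control, and JAZ8 had 11.496, 11.62 and 10.35 with NaCl, against 8.16, 6.61 and 7.15 in the control. Their NaCl arrays were all above the control, with log2 fold changes of 4.58 (limma adjusted p = 0.00179) and 3.85 (limma adjusted p = 0.00545). MYC2 (AT1G32640), the main factor of jasmonate signalling, had 14.58, 14.93 and 14.01 with NaCl, against 12.11 and 11.62 on the 2 control arrays measured, and rose by 2.64 (limma adjusted p = 0.00739). JAZ5 rose by 2.34. JAZ9 (AT1G70700), a repressor of the same family, had 12.54, 13.38 and 12.61 with NaCl, against 14.43, 13.79 and 13.58 in the control, with a log2 fold change of -1.09 (limma adjusted p = 0.0490), and was called in 1 of the 6 fits that left out 1 array and lost without NaCl replicates 1 and 3 and control replicates 1, 2 and 3 (limma adjusted p of 0.0690 to 0.125). The synthesis genes AOC1 and AOC2 (AT3G25770), allene oxide cyclases of similar sequence, fell. AOC2 had 8.84, 10.14 and 8.41 with NaCl, against 13.55, 13.57 and 12.25 in the control, without overlap, and fell by 3.99 (standard error 0.56, limma adjusted p = 0.00633), and AOC1 fell by 2.83 (limma adjusted p = 0.0133). LOX2 (AT3G45140), a lipoxygenase of the chloroplast, had 14.88, 16.18 and 14.90 with NaCl, against 17.93 and 16.88 on the 2 control arrays measured, and was called in 1 of the 6 fits that left out 1 array and lost without NaCl replicates 1 and 3 and control replicates 1, 2 and 3 (limma adjusted p of 0.0518 to 0.166). AOS (AT5G42650), the next enzyme of this path, had 14.11, 14.31 and 13.47 with NaCl, against 16.09, 15.71 and 14.23 in the control, with 1 overlapping array, and was not called (-1.38, limma adjusted p = 0.0885), while it was called without control replicate 3 (-1.91, limma adjusted p = 0.0251).

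For salicylic acid, the defence hormone of living tissue, 2 genes were upregulated and 2 downregulated of 18 tested. Under the omission of 1 array, 1 of the 2 increases and 0 of the 2 decreases held, and the number of increases was 1 without control replicate 3, and the number of decreases was 0 without NaCl replicate 2 and control replicate 3, 1 without NaCl replicate 3 and control replicates 1 and 2 and 4 without NaCl replicate 1. PR1 (AT2G14610), its marker, had log2 signals of 7.89, 1.69 and 7.32 with NaCl, against 6.05, 7.89 and 10.56 in the control. The arrays of both groups overlapped, with NaCl replicate 2 the lowest and control replicate 3 the highest (log2 fold change -2.54, standard error 1.92, limma adjusted p = 0.340). ICS1 (AT1G74710), which makes salicylic acid, had 8.61, 7.29 and 7.497 with NaCl, against 9.39, 8.57 and 9.56 in the control, and was not called (-1.37, limma adjusted p = 0.0559), while it was called without NaCl replicate 1 (-1.79, limma adjusted p = 0.0262). NPR3 (AT5G45110), a receptor of salicylic acid, had 11.16, 11.28 and 10.79 with NaCl, against 9.73, 9.66 and 9.72 in the control, and rose by 1.38 (standard error 0.18, limma adjusted p = 0.00531), with both groups narrow. In ethylene synthesis, genes of the synthases and of the oxidases were each called in both directions. The oxidase gene ACO1 (AT2G19590) rose by 2.91 (limma adjusted p = 0.0168). Its call was made in 4 of the 6 fits that left out 1 array and lost without NaCl replicate 2 and control replicate 3 (limma adjusted p of 0.0512 to 0.0631). ACS6 (AT4G11280), a synthase of the ethylene precursor, had 14.17, 14.09 and 13.69 with NaCl, against 11.42, 10.49 and 11.45 in the control, and rose by 2.87 (standard error 0.31, limma adjusted p = 0.00345), and ACS2 rose by 3.55 (limma adjusted p = 0.00442). ACS4 (AT2G22810), another synthase gene, had 1.49, 1.54 and 1.89 with NaCl, against 4.14, 4.46 and 4.29 in the control, and was well above background on no NaCl array. It was at least 1.69-fold lower with NaCl (limma adjusted p = 0.00122), a call lost with normexp background correction. ACO4 (AT1G05010), an oxidase gene whose enzyme turns the precursor into ethylene, had 13.07, 13.65 and 13.89 with NaCl, against 15.701 and 15.75 on the 2 control arrays measured, and fell by 2.19 (limma adjusted p = 0.00792), with all NaCl arrays below the control. EIL1 (AT2G27050), a factor of ethylene signalling, had 11.52, 11.86 and 11.94 with NaCl, against 13.23, 13.23 and 13.14 in the control, and fell by 1.43 (limma adjusted p = 0.00435). EBF2, its negative regulator, was not called (-0.16, limma adjusted p = 0.508). In all, 4 ethylene genes rose and 6 fell of 18 tested, and 2 and 6 of these calls held. On any 5 of the arrays, the number of increases was 2 without NaCl replicate 2 and control replicate 3.

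Of the lists of processes and families, aliphatic glucosinolate synthesis, the path from methionine to mustard oil precursors, had the largest share of downregulated genes, at 87.5%. Of 16 tested genes, 14 were downregulated, 12 of which held, and in all 16 every NaCl array lay below every control array. MYB29 (AT5G07690), a factor that drives this path, had log2 signals of 6.35, 8.11 and 7.39 with NaCl, against 10.54, 11.43 and 10.81 in the control, and fell by 3.64 (standard error 0.48, limma adjusted p = 0.00545). MYB76 (AT5G07700), a related factor, had 1.83, 2.78 and 1.305 with NaCl, against 7.51, 8.33 and 7.48 in the control. It was well above the background on no NaCl array and was at least 18.9-fold lower with NaCl (limma adjusted p = 0.00150). MYB28 (AT5G61420), the third factor, had 7.69, 8.69 and 8.03 with NaCl, against 8.89, 9.11 and 8.92 in the control, with all NaCl arrays below the control, but its log2 fold change of -0.83 was not called (standard error 0.28, limma adjusted p = 0.0649), while it was called without NaCl replicate 2 (-1.12, limma adjusted p = 0.0362). Of the enzymes, CYP79F1 (AT1G16410), which commits the lengthened amino acid to the path, had 8.76, 10.28 and 8.72 with NaCl, against 13.43, 13.88 and 13.09 in the control. NaCl replicate 2 was the highest of the NaCl arrays here and in each of the 3 factors, but remained below the control, and CYP79F1 fell by 4.21 (standard error 0.47, limma adjusted p = 0.00370). IPMI1 (AT3G58990), an isomerase of the chain lengthening cycle, had 8.34, 9.44 and 7.56 with NaCl, against 12.06, 12.23 and 11.95 in the control, and fell by 3.63 (standard error 0.47, limma adjusted p = 0.00514). The other enzymes of the list fell by between 1.47 and 3.45 on the log2 scale, except the sulfotransferase gene SOT18, at -0.94, which was not called.

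**Figure D4:**
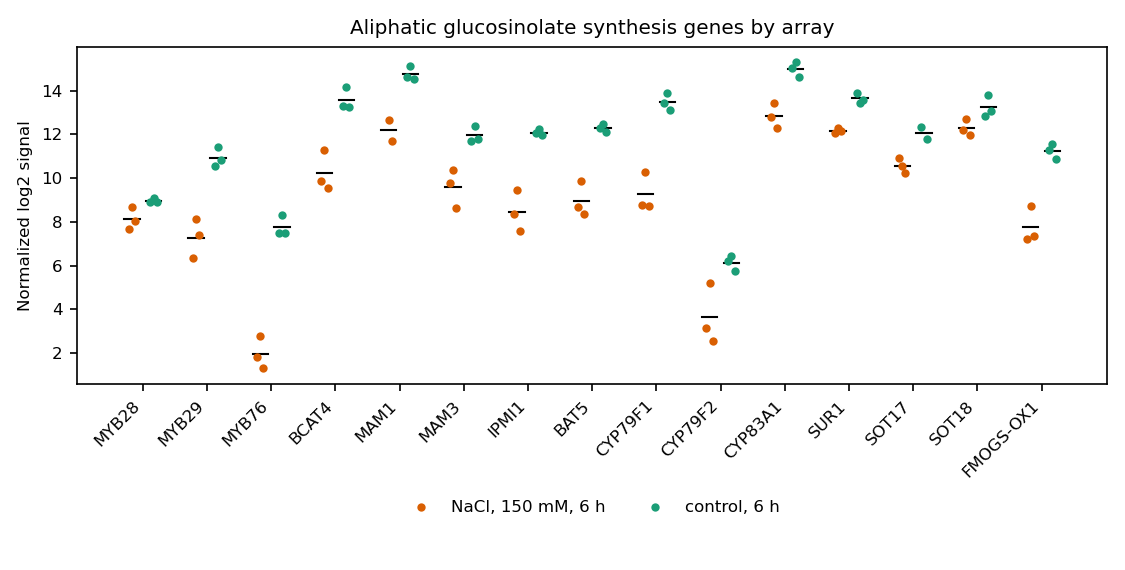
Normalized log2 signal (y axis) of 15 genes of aliphatic glucosinolate synthesis (x axis), with factors first and enzymes in the order of the path, 1 point per array, NaCl left (orange) and control right (green), and bars at the group means. Spots left out as non-uniform have no point, and the NaCl points lie below the control points in every gene.

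Indole glucosinolates and camalexin, which are made from tryptophan, had 3 decreases and no increase among 12 genes, with a median of -1.14. If 1 array was dropped, 1 of the 3 decreases held, and the number of decreases was 1 without control replicate 1. CYP81F2 (AT5G57220), which modifies indole glucosinolates, had log2 signals of 7.33, 7.85 and 6.89 with NaCl, against 12.39, 11.05 and 12.13 in the control, without overlap, and fell by 4.50 (standard error 0.42, limma adjusted p = 0.00245). CYP79B2 (AT4G39950), the entry enzyme, had 11.73, 11.28 and 11.31 with NaCl, against 13.62, 12.63 and 12.25 in the control, and was called in 1 of the 6 fits that left out 1 array and lost without NaCl replicate 1 (log2 fold change -1.54, limma adjusted p = 0.0606), without NaCl replicate 2 (log2 fold change -1.32, limma adjusted p = 0.112), without NaCl replicate 3 (log2 fold change -1.33, limma adjusted p = 0.0770), without control replicate 1 (log2 fold change -0.996, limma adjusted p = 0.0434) and without control replicate 2 (log2 fold change -1.497, limma adjusted p = 0.0703). PAD3, the last enzyme of camalexin synthesis, had overlapping groups (-1.66, limma adjusted p = 0.120). Among the glutathione S-transferases, 5 rose and 10 fell of 45 tested, and 7 of the decreases held. Of the 45, 6 passed the background filter in 1 group only. With each array left out in turn, the number of increases was 2 without NaCl replicates 1 and 2 and control replicate 3, 3 without control replicates 1 and 2 and 10 without NaCl replicate 3. GSTU20 (AT1G78370) had 9.89, 11.14 and 11.13 with NaCl, against 14.80, 15.38 and 14.90 in the control, and fell by 4.31 (standard error 0.39, limma adjusted p = 0.00224), and GSTF11 (AT3G03190), which has been placed in the aliphatic path, had 6.61, 8.02 and 6.08 with NaCl, against 10.48, 10.68 and 10.25 in the control, and fell by 3.56 (limma adjusted p = 0.00615). Both were lower on every NaCl array. GSTU2 (AT2G29480) rose to 8.01, 10.55 and 6.68 with NaCl, against 4.04, 3.32 and 2.95 in the control, with 1 of 3 control arrays above the background.

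Sulfate assimilation feeds the sulfur of glucosinolates and glutathione. Its list had 6 downregulated genes of 25, all 6 of which held, and 1 upregulated gene. When single arrays were left out, the number of increases was 0 without NaCl replicates 1 and 2 and control replicates 1, 2 and 3. APS1 (AT3G22890), an ATP sulfurylase, had log2 signals of 11.53, 11.63 and 11.10 with NaCl, against 13.81, 13.93 and 13.19 in the control, and fell by 2.22 (standard error 0.26, limma adjusted p = 0.00425). APR1 (AT4G04610), the reductase of the next step, had 10.69, 11.64 and 10.76 with NaCl, against 13.54, 13.87 and 12.64 in the control, and fell by 2.32 (limma adjusted p = 0.0112). APS3 fell by 2.48, and GSH2, which completes glutathione, fell by 1.72. In each of these 4 genes the NaCl arrays lay below all control arrays. APR3 had a log2 fold change of -0.73, under the fold threshold (limma adjusted p = 0.0438). The root sulfate transporter gene SULTR1;2 (AT1G78000) had 10.20, 9.51 and 6.82 with NaCl, against 8.61, 7.91 and 6.68 in the control, with overlapping groups (1.11, limma adjusted p = 0.3998).

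Nuclear genes of the chloroplast had a median below that of all genes, and no upregulated member, in each of the lists of the antenna, the photosystems, the Calvin-Benson cycle, photorespiration, chlorophyll synthesis, starch synthesis and plastid ribosomes. For the photosystems and electron transport, 16 of 36 genes were downregulated, and in 32 all NaCl arrays lay below the control. The list medians per array were 15.21, 15.54 and 15.63 with NaCl, against 16.69, 16.18 and 16.18 in the control. PSAH2 (AT1G52230), a subunit of photosystem I, had log2 signals of 12.01, 12.28 and 12.83 with NaCl, against 14.81, 14.33 and 14.45 in the control, and fell by 2.16 (standard error 0.26, limma adjusted p = 0.00453). PSBS (AT1G44575), which protects photosystem II from excess light, had 13.79 and 14.37 on the 2 NaCl arrays measured, against 16.56, 16.00 and 15.77 in the control, and fell by 2.03 (limma adjusted p = 0.0124). PSBO1 (AT5G66570), of the oxygen-evolving complex, had 18.14, 17.98 and 18.23 with NaCl, against 17.79 and 18.61 on the 2 control arrays measured, and overlapped (-0.09, limma adjusted p = 0.836). The 2 other kept probes of PSBO1 had log2 fold changes of -1.10 and -0.30. With 1 array left out, 8 of these decreases held, and the count was 9 without NaCl replicate 2.

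In the light-harvesting antenna, 6 of 21 genes fell, while LHCB1.3 (AT1G29930) did not pass the test. In the fits without 1 array, 4 of the 6 decreases held. LHCB1.3, a main antenna protein, had log2 signals of 18.35, 18.35 and 18.41 with NaCl, against 17.62, 18.22 and 18.195 in the control. The NaCl arrays lay slightly above the control, and the log2 fold change of 0.36 was not called (standard error 0.21, limma adjusted p = 0.226). These are the values of its brightest probe, and its 8 other kept probes had log2 fold changes of -1.66 to 0.35. LHCB4.3 (AT2G40100), a minor antenna protein, had 8.999, 9.04 and 10.68 with NaCl, against 14.82, 13.95 and 14.09 in the control, and fell by 4.71 (standard error 0.52, limma adjusted p = 0.00353), with NaCl replicate 3 the highest of its group but still below the control. LHCB6 (AT1G15820) had 16.79, 16.93 and 17.35 with NaCl, against 18.61, 18.61 and 18.53 in the control, and fell by 1.56 (limma adjusted p = 0.00462). The LHCB1 and LHCB2 genes are near copies of each other, so their probes may share signal. In the Calvin-Benson cycle, 9 of 19 genes fell, and 4 of these calls held. PRK (AT1G32060), which makes the acceptor of carbon dioxide, had 12.65, 12.84 and 12.91 with NaCl, against 14.75, 14.23 and 14.07 in the control, and fell by 1.55 (standard error 0.22, limma adjusted p = 0.00654). CFBP1, the plastid fructose bisphosphatase, fell by 1.72 (limma adjusted p = 0.00788). The Rubisco small subunit gene RBCS1A (AT1G67090) had 16.999, 17.14 and 17.47 with NaCl, against 17.18, 17.59 and 17.45 in the control, and Rubisco activase, RCA (AT2G39730), had 17.33, 17.21 and 16.90 with NaCl, against 17.58, 17.12 and 17.06 in the control. Both overlapped between the groups and were not called (-0.20 and -0.11 on the log2 scale). These are the values of the brightest probe of each gene. The other kept probes of RBCS1A had log2 fold changes of -2.52 to -0.33 and those of RCA of -1.15 to -0.11, all lower with NaCl, and RBCS1A was called without NaCl replicates 1 and 3 (-1.12 and -1.40, limma adjusted p of 0.0151 to 0.0377), when another of its probes was the brightest. The summed intensity of 2 RBCS genes was 213000, 245000 and 298000 with NaCl, against 361000, 403000 and 379000 in the control, without overlap.

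Photorespiration, the salvage of carbon after Rubisco takes up oxygen, had 6 decreases of 13, of which 5 held. SHM1 (AT4G37930), its serine hydroxymethyltransferase in mitochondria, had log2 signals of 13.30, 14.25 and 13.82 with NaCl, against 16.80, 16.25 and 16.01 in the control, and PGLP1 (AT5G36700), its first phosphatase, had 9.69, 10.29 and 10.07 with NaCl, against 13.47, 12.71 and 12.25 in the control. The NaCl arrays of both were below the control, with decreases of 2.56 and 2.79 (limma adjusted p = 0.00476 and limma adjusted p = 0.00468). GOX1, a glycolate oxidase, overlapped (-0.10, limma adjusted p = 0.756), as did GLDP1 (-0.80, limma adjusted p = 0.109). The other kept probes of GOX1 had log2 fold changes of -0.96 to -0.30, and those of GLDP1 of -0.75 to -0.145. In chlorophyll synthesis 8 of 16 genes fell, and the NaCl arrays lay below the control in 15. CHLH (AT5G13630), a subunit of the magnesium chelatase, had 13.96, 14.42 and 14.53 with NaCl, against 16.83, 15.80 and 15.77 in the control, and fell by 1.83 (standard error 0.34, limma adjusted p = 0.0129). HEMA1 (AT1G58290), the first enzyme of the path, had 12.64, 12.88 and 13.03 with NaCl, against 13.44, 13.39 and 13.76 in the control, without overlap and with a fold change under 2 (-0.68, limma adjusted p = 0.0382). Leaving out 1 array, 3 of the decreases held, and the count was 3 without NaCl replicate 2 and control replicates 1 and 3 and 4 without NaCl replicate 1.

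Of the plastid ribosomal proteins, 8 of 24 were downregulated, but none held in all 6 fits, and the count was 0 without NaCl replicate 2 and control replicate 1, 1 without NaCl replicate 1 and control replicate 3, 4 without control replicate 2 and 16 without NaCl replicate 3. Their list medians per array were 11.92, 12.24 and 13.28 with NaCl, against 14.36, 13.57 and 13.73 in the control, and NaCl replicate 3 lay nearer to the control than the other NaCl arrays. Starch synthesis fell in 5 of 8 genes. Across the leave-one-out fits, 3 of the 5 decreases held. ADG1 (AT5G48300), the small subunit of the enzyme that makes the glucose donor, had log2 signals of 11.04, 11.52 and 11.77 with NaCl, against 13.89, 13.76 and 13.91 in the control, and fell by 2.41 (standard error 0.22, limma adjusted p = 0.00235). Its large subunit gene APL1 fell by 2.37 (limma adjusted p = 0.00532), while APL3 overlapped between the groups (-0.41, limma adjusted p = 0.183). In starch breakdown, 2 genes rose and 3 fell of 15. By the fits on 5 arrays, 0 of the 2 increases and 2 of the 3 decreases held, and the number of increases was 1 without NaCl replicates 1 and 2 and control replicate 3. BAM5 (AT4G15210), a beta-amylase outside the chloroplast, had 5.24, 6.51 and 6.82 with NaCl, against 11.89, 12.49 and 9.60 in the control, and fell by 5.13 (standard error 0.82, limma adjusted p = 0.00874). GWD1 and BAM3, which open and degrade leaf starch at night, were not called (0.18 and -0.59 on the log2 scale).

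Markers of tissues were read beside these lists. The summed intensity of the 16 antenna genes measured on all arrays was 1680000, 1800000 and 1960000 with NaCl, against 2360000, 2470000 and 2320000 in the control. For 4 markers of leaf epidermis and guard cells the sums were 273, 346 and 1330 with NaCl, against 4140, 1210 and 1030 in the control. They overlapped between the groups, as NaCl replicate 3 lay within the control range. Of 6 such markers tested, only MYB60 (AT1G08810), a guard cell factor, was called, with 5.71, 6.23 and 6.73 with NaCl, against 9.67, 8.72 and 8.39 in the control (-2.71, limma adjusted p = 0.00758). The sums of 8 root markers were 29100, 9250 and 7440 with NaCl, against 1440, 12200 and 3710 in the control, and BGLU23 (AT3G09260), a root glucosidase with 14.58, 12.66 and 12.56 with NaCl, against 6.77, 13.44 and 11.41 in the control, made up most of each sum except that of control replicate 1. Without BGLU23 the sums were 4660, 2790 and 1420 with NaCl, against 1330, 1060 and 985 in the control. Of 19 root markers, 10 were not above the background, among them PLT1, PLT2, WOX5 and SMB. Of the 9 tested, 3 passed the background filter in 1 group only, and 2 were upregulated, COBL9 and MYB36. COBL9 had a log2 fold change of 3.24, with 1 of 3 control arrays above the background. MYB36, at 2.83, had 2 of 3 control arrays above it, and its other kept probe had a log2 fold change of 0.39. The call of MYB36 was made in 2 of the 6 fits that left out 1 array. It was lost without NaCl replicates 1 and 2 and control replicates 1 and 3 (limma adjusted p of 0.116 to 0.134). Of 5 flower markers 4, and of 4 seed markers all 4, were not above the background. The 1 flower marker tested had 5.29, 4.70 and 10.8 with NaCl, against 2.65, 6.44 and 1.31 in the control. It passed the background filter in 1 group only, overlapped between the groups and was not called (log2 fold change 3.47), with NaCl replicate 3 far above the other arrays. Whether shares of root and shoot had a part in the lower chloroplast lists was not tested.

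**Figure D5:**
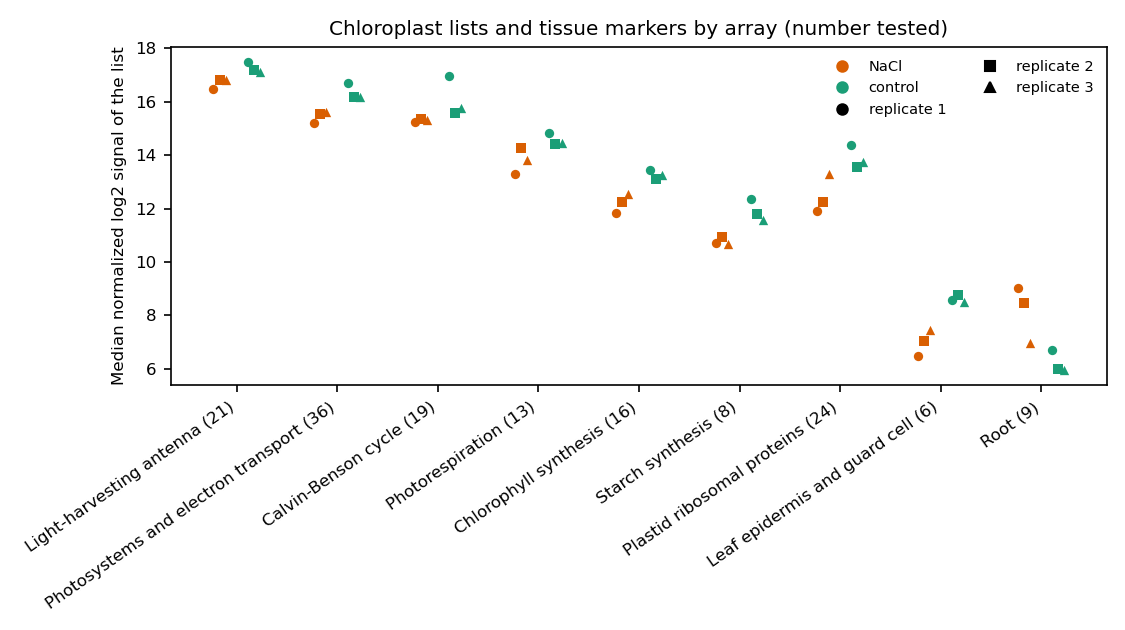
Median normalized log2 signal (y axis) of 7 chloroplast lists and 2 lists of tissue markers (x axis, with the number of genes tested) on each array, NaCl left (orange) and control right (green), with a shape per replicate. The NaCl medians lie below the control medians in each chloroplast list and in the leaf epidermis list, and above them in the root list.

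Nitrogen uptake and assimilation had 8 downregulated and 2 upregulated genes of 27, and 3 of the decreases held, with counts of 4 without NaCl replicate 2 and 5 without NaCl replicate 3 and control replicates 1 and 2. NRT1.1 (AT1G12110), a transporter and sensor of nitrate, had log2 signals of 11.63, 11.52 and 10.65 with NaCl, against 13.41, 13.18 and 13.37 in the control, without overlap, and fell by 2.05 (standard error 0.29, limma adjusted p = 0.00628). LBD38 (AT3G49940), a factor induced by nitrate, had 10.75, 10.24 and 10.45 with NaCl, against 13.34, 13.26 and 13.79 in the control, and fell by 2.98 (standard error 0.22, limma adjusted p = 0.00150). ASN2, an asparagine synthetase, fell by 2.87 (limma adjusted p = 0.00230), whereas GLN1;3, a glutamine synthetase of the cytosol, rose by 1.33 (limma adjusted p = 0.00949). NRT2.1 (AT1G08090), the high-affinity nitrate transporter, had 8.44, 5.97 and 3.99 with NaCl, against 7.86, 8.21 and 7.55 in the control. Its NaCl arrays spread from above the control to far below it, and it was not called (-1.74, limma adjusted p = 0.245), while it was called without NaCl replicate 1 (-2.92, limma adjusted p = 0.0327).

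In the phosphate starvation list, 4 genes rose and 2 fell of 18. Under the omission of 1 array, 1 of the 4 increases and 1 of the 2 decreases held, and the number of increases was 1 without control replicates 2 and 3 and 2 without control replicate 1, and the number of decreases was 1 without NaCl replicate 2. PAP17 (AT3G17790), an acid phosphatase, had log2 signals of 14.86, 14.96 and 13.91 with NaCl, against 12.41, 12.29 and 12.77 in the control, and rose by 2.09 (standard error 0.32, limma adjusted p = 0.00803), with all NaCl arrays above the control. PHR1 (AT4G28610), the main factor of this response, had 9.80, 9.78 and 10.03 with NaCl, against 11.77, 11.11 and 11.19 in the control, and fell by 1.49 (limma adjusted p = 0.00746). SPX1 (AT5G20150), a phosphate sensor, had 10.44, 12.55 and 10.53 with NaCl, against 8.73, 8.86 and 9.68 in the control, and was called in 0 of the 6 fits that left out 1 array and lost without NaCl replicates 1, 2 and 3 and control replicates 1, 2 and 3 (limma adjusted p of 0.0518 to 0.130). PHT1;4, a phosphate transporter, overlapped (0.10, limma adjusted p = 0.917). Of 18 genes of iron homeostasis, 2 rose and 2 fell. On any 5 of the arrays, 1 of the 2 increases and 2 of the 2 decreases held, and the number of increases was 1 without NaCl replicates 1 and 2 and control replicates 1 and 2. PYE (AT3G47640), a factor of iron deficiency, had 11.71, 11.91 and 11.81 with NaCl, against 9.73, 10.14 and 10.13 in the control, with narrow groups, and rose by 1.81 (standard error 0.18, limma adjusted p = 0.00278). OPT3 (AT4G16370), a transporter of iron in the phloem, had 10.10, 10.18 and 10.15 with NaCl, against 11.79, 11.61 and 11.34 in the control, and fell by 1.44 (limma adjusted p = 0.00431), and NAS4, which makes the metal chelator nicotianamine, fell by 1.95 (limma adjusted p = 0.00904). FIT, the factor of iron uptake in roots, had overlapping groups (-0.67, limma adjusted p = 0.193), and was called without NaCl replicate 1 (-1.08, limma adjusted p = 0.0197).

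Genes that respond to a lack of carbon had 4 increases and 1 decrease of 22, with a median of 0.20 that was -0.145 without scaling. If 1 array was dropped, 2 of the 4 increases and 1 of 1 decrease held, and the number of increases was 2 without NaCl replicates 2 and 3, and the number of decreases was 2 without control replicates 1 and 2. BGLU30 (AT3G60140), a glucosidase induced in the dark, had log2 signals of 10.95, 8.94 and 10.73 with NaCl, against 4.80, 1.92 and 2.98 in the control, with 1 control array above the background. The NaCl arrays were all well above the control, and the log2 fold change was 6.97 (standard error 0.86, limma adjusted p = 0.00463). LKR (AT4G33150), which breaks down lysine, had 14.36, 13.15 and 13.13 with NaCl, against 10.87, 11.30 and 10.17 in the control, and rose by 2.77 (standard error 0.44, limma adjusted p = 0.00875). ASN1 (AT3G47340), the asparagine synthetase of darkness, had 11.94, 12.40 and 13.47 with NaCl, against 9.68, 11.38 and 10.09 in the control, and was called in 2 of the 6 fits that left out 1 array and lost without NaCl replicates 2 and 3 and control replicates 1 and 3 (limma adjusted p of 0.0605 to 0.0913). IVD, of the breakdown of branched amino acids, had NaCl arrays above the control but was not called (1.17, limma adjusted p = 0.0998). TPS11 (AT2G18700), of the trehalose phosphate synthase family, had 12.52, 11.90 and 12.55 with NaCl, against 14.29 and 14.12 on the 2 control arrays measured, and fell by 1.88 (limma adjusted p = 0.00934).

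In chlorophyll breakdown and senescence, 5 genes rose and 1 fell of 14, and 2 of the increases held, with counts of 2 without NaCl replicates 1 and 2 and control replicates 1, 2 and 3. SAG12 (AT5G45890), a protease of late senescence, had log2 signals of 14.06, 8.21 and 13.09 with NaCl, against 2.43, 1.6 and 1.53 in the control. It was well above the background on no control array, with an increase of at least 303-fold (limma adjusted p = 0.00734), with NaCl replicate 2 far below the other NaCl arrays. NYE2 (AT4G11910), which starts chlorophyll breakdown, had 13.01, 11.75 and 11.67 with NaCl, against 9.04, 9.49 and 9.52 in the control, and rose by 2.79 (standard error 0.39, limma adjusted p = 0.00633). Its relative NYE1 (AT4G22920) had 12.13, 11.38 and 11.32 with NaCl, against 10.04, 10.81 and 10.62 in the control, and was called in 1 of the 6 fits that left out 1 array and lost without NaCl replicates 1 and 2 and control replicates 1, 2 and 3 (limma adjusted p of 0.0571 to 0.0962). NAC092 (AT5G39610), a factor that promotes senescence with age, had 12.85, 12.48 and 12.63 with NaCl, against 14.21, 14.60 and 14.36 in the control, and fell by 1.73 (standard error 0.18, limma adjusted p = 0.00322), without overlap. Of 22 autophagy genes, 4 rose, none of which held, with a median of 0.36 and no decrease. With each array left out in turn, the number of increases was 0 without NaCl replicate 1, 1 without NaCl replicate 2 and 2 without control replicates 2 and 3. ATG5 (AT5G17290) had 10.30, 10.09 and 10.14 with NaCl, against 9.99, 9.90 and 9.84 in the control, slightly higher on all NaCl arrays, and was not called (0.27, limma adjusted p = 0.201).

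Enzymes that remove reactive oxygen, among them those of ascorbate recycling, had 6 decreases and 1 increase of 31, and 3 of the decreases held. When single arrays were left out, the number of increases was 0 without NaCl replicates 1 and 2 and control replicate 1, and the number of decreases was 3 without NaCl replicate 2. TAPX (AT1G77490), the ascorbate peroxidase of thylakoids, had log2 signals of 10.07, 10.698 and 11.19 with NaCl, against 13.53, 12.79 and 12.69 in the control, without overlap, and fell by 2.35 (standard error 0.36, limma adjusted p = 0.00796). MDAR6 (AT1G63940), which recycles ascorbate, had 11.15, 11.42 and 11.35 with NaCl, against 13.27, 12.41 and 12.65 in the control, and fell by 1.47 (limma adjusted p = 0.0107). CAT2 (AT4G35090), the catalase of leaf peroxisomes, had 15.59, 15.04 and 14.41 with NaCl, against 15.64, 15.35 and 14.63 in the control, and APX1 (AT1G07890), the peroxidase of the cytosol, had 14.42, 14.29 and 14.09 with NaCl, against 15.01, 14.30 and 14.55 in the control. Neither was called, and both overlapped (-0.19 and -0.35 on the log2 scale). Of the mitochondrial stress list, 1 of 12 rose, OM66 (AT3G50930), with 11.59, 11.55 and 11.33 with NaCl, against 9.59, 9.33 and 10.03 in the control, and an increase of 1.84 (limma adjusted p = 0.00442). In the fits without 1 array, 1 of 1 increase held, and the number of increases was 2 without NaCl replicate 3 and 3 without NaCl replicate 1. AOX1A (AT3G22370), the alternative oxidase, had 12.44, 13.62 and 12.30 with NaCl, against 12.32, 11.66 and 11.61 in the control, and was not called (0.92, limma adjusted p = 0.130).

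Hormones of growth showed changes in synthesis and breakdown genes. For gibberellin, GA2OX6 (AT1G02400), which inactivates the hormone, had log2 signals of 12.97, 12.87 and 12.44 with NaCl, against 10.36, 9.50 and 9.35 in the control, and rose by 3.02 (standard error 0.32, limma adjusted p = 0.00317). GA3OX1 (AT1G15550), which activates it, had 7.31, 7.77 and 7.59 with NaCl, against 11.18, 11.22 and 10.26 in the control, and fell by 3.33 (standard error 0.31, limma adjusted p = 0.00233). Neither gene overlapped between the groups. RGL2, a DELLA repressor, rose by 2.61 (limma adjusted p = 0.00906). GA20OX1 (AT4G25420), of an earlier step, had 5.58, 5.25 and 6.00 with NaCl, against 6.34, 7.01 and 7.22 in the control, and was called in 2 of the 6 fits that left out 1 array and lost without NaCl replicates 1 and 2 and control replicates 2 and 3 (limma adjusted p of 0.0697 to 0.0930). The gibberellin list had 4 increases and 2 decreases of 14. Across the leave-one-out fits, 2 of the 4 increases and 1 of the 2 decreases held, and the number of increases was 2 without NaCl replicate 2 and control replicates 1 and 3, and the number of decreases was 1 without NaCl replicates 1 and 2 and control replicates 2 and 3. Among 15 cytokinin genes, 1 rose and 4 fell. By the fits on 5 arrays, 1 of 1 increase and 2 of the 4 decreases held, and the number of decreases was 7 without NaCl replicate 3. CKX4 (AT4G29740), an oxidase that breaks cytokinin down, had 6.91, 6.09 and 6.59 with NaCl, against 10.23, 9.08 and 8.83 in the control, and fell by 2.85 (standard error 0.42, limma adjusted p = 0.00697). ARR5 (AT3G48100), an early response regulator, had 9.90 and 10.50 on the 2 NaCl arrays measured, against 8.76, 8.63 and 8.51 in the control, and rose by 1.57 (limma adjusted p = 0.0117). No brassinosteroid gene of 10 was called by limma, and 4 were higher and 2 lower at an unadjusted p under 0.05. DWF4, of the limiting step, had NaCl arrays above the control by 0.60 (limma adjusted p = 0.0669).

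Among early auxin genes of the Aux/IAA and GH3 families, 4 rose and 1 fell of 29, and the largest increase was that of IAA14 (AT4G14550), with log2 signals of 9.05, 9.49 and 9.57 with NaCl, against 6.89, 6.95 and 7.46 in the control (2.27, limma adjusted p = 0.00317). Under the omission of 1 array, 1 of the 4 increases and 0 of 1 decrease held, and the number of increases was 2 without control replicates 1, 2 and 3, and the number of decreases was 0 without NaCl replicate 2 and 2 without control replicate 1. The SAUR family, small proteins of cell expansion, had 7 increases and 14 decreases of 55, of which 6 and 10 held. Of the 55, 12 passed the background filter in 1 group only. SAUR79 (AT2G35290) had 13.05 and 13.14 on the 2 NaCl arrays measured, against 7.93, 7.44 and 8.40 in the control, and SAUR72 (AT3G12830) had 13.44, 12.46 and 12.31 with NaCl, against 9.84, 9.72 and 10.04 in the control. Both were above the control on all NaCl arrays, by 5.17 (limma adjusted p = 0.00168) and 2.87 (limma adjusted p = 0.00373). At the other end, SAUR34 (AT4G22620) had 1.26, 2.31 and 1.98 with NaCl, against 6.505, 6.98 and 4.97 in the control. It was well above the background on no NaCl array and at least 6.13-fold lower with NaCl (limma adjusted p = 0.00535). SAUR genes lie in clusters of similar sequence, so single values are uncertain.

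In the cell wall, xyloglucan endotransglucosylases, which cut and rejoin wall polymers, had 7 increases and 3 decreases of 27, and 5 of the increases held. Of the 27, 7 passed the background filter in 1 group only. On any 5 of the arrays, the number of decreases was 1 without NaCl replicates 1 and 2 and control replicate 2. XTH18 (AT4G30280) had log2 signals of 11.98, 12.44 and 12.08 with NaCl, against 9.29, 9.35 and 8.91 in the control, and rose by 2.98 (standard error 0.21, limma adjusted p = 0.00122). XTR6 (AT4G25810) had 11.47, 10.41 and 10.03 with NaCl, against 6.502, 7.14 and 7.20 in the control, and rose by 3.69 (limma adjusted p = 0.00370). Both were above the control on every NaCl array. Of 21 expansins, 2 rose and 3 fell, and the increases were those of the expansin-like genes EXLA1 (3.65, limma adjusted p = 0.00245) and EXLA3 (4.98, limma adjusted p = 0.00385), which held, while no decrease did. If 1 array was dropped, the number of decreases was 0 without NaCl replicate 2 and control replicates 1 and 2 and 1 without NaCl replicate 1. PME3 (AT3G14310), a pectin methylesterase, had 13.72, 13.90 and 14.42 with NaCl, against 16.36 and 16.65 on the 2 control arrays measured, and fell by 2.49 (standard error 0.28, limma adjusted p = 0.00535). Cellulose synthase genes had 2 decreases of 11, none of which held, and CESA1 and CESA4, of the primary and the secondary wall, overlapped (-0.18 and 0.46 on the log2 scale). With each array left out in turn, 0 of the 2 decreases held, and the number of decreases was 0 without control replicate 2 and 1 without NaCl replicates 1 and 2 and control replicate 3.

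Cell division and DNA replication had 3 decreases and no increase of 36, below the share of all genes, with a median of -0.75. E2FA (AT2G36010), a factor of entry into DNA replication, had log2 signals of 5.36, 4.91 and 6.08 with NaCl, against 7.95, 7.14 and 7.54 in the control, without overlap, and fell by 2.095 (standard error 0.36, limma adjusted p = 0.0104). The mitotic cyclin gene CYCB1;1 (AT4G37490) had 4.88, 3.96 and 5.80 with NaCl, against 6.60, 6.39 and 4.96 in the control, and overlapped (-1.10, limma adjusted p = 0.208). MCM5 (AT2G07690), of the replication helicase, had 7.71, 7.71 and 9.04 with NaCl, against 9.76, 9.47 and 9.08 in the control, all lower with NaCl but not called (-1.28, limma adjusted p = 0.0597), while it was called without NaCl replicate 3 (-1.74, limma adjusted p = 0.0114). The count of decreases was 1 without NaCl replicates 1 and 2 and control replicates 1, 2 and 3 and 16 without NaCl replicate 3. The list medians per array were 6.99, 6.48 and 8.08 with NaCl, against 8.23, 7.905 and 7.49 in the control. NaCl replicate 3 thus lay within the control range, and only NaCl replicates 1 and 2 lay below it.

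At the plant surface, lipid transfer proteins rose in 3 of 12 genes. When single arrays were left out, 2 of the 3 increases held. LTP3 (AT5G59320) had log2 signals of 16.40, 15.95 and 15.28 with NaCl, against 12.16, 9.31 and 9.69 in the control, and LTP2 (AT2G38530) had 14.56, 13.39 and 13.94 with NaCl, against 10.50, 11.19 and 10.32 in the control. All NaCl arrays of both lay above the control, with increases of 5.49 (standard error 0.78, limma adjusted p = 0.00642) and 3.29 (standard error 0.37, limma adjusted p = 0.00370). LTP4 (AT5G59310), with 13.69 and 12.10 on the 2 NaCl arrays measured, against 8.14, 3.95 and 6.20 in the control, was called in 4 of the 6 fits that left out 1 array and lost without NaCl replicate 1 and control replicate 3 (limma adjusted p of 0.0552 to 0.0764). LTP3 and LTP4 are neighbours of similar sequence. For wax and cutin, 4 of 24 genes rose and none fell, with a median of 0.17 that was -0.186 without scaling. In the fits without 1 array, 0 of the 4 increases held, and the number of increases was 0 without NaCl replicate 2 and 1 without control replicate 3. CER1 (AT1G02205), of wax alkane synthesis, had 13.30, 14.08 and 14.62 with NaCl, against 11.94, 11.27 and 9.29 in the control, and a log2 fold change of 3.17 (limma adjusted p = 0.0226), and was called in 4 of the 6 fits that left out 1 array and lost without NaCl replicates 2 and 3 (limma adjusted p of 0.0546 to 0.0746).

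Suberin, the barrier of root cells, had 2 increases of 12 and a median of 1.47, and 6 of the 12 passed the background filter in 1 group only. CYP86A1 (AT5G58860), which makes its fatty acid monomers, had log2 signals of 9.20, 9.22 and 9.34 with NaCl, against 1.32, 8.70 and 6.37 in the control, and GPAT5 (AT3G11430), which joins them to glycerol, had 7.29, 6.89 and 6.82 with NaCl, against 1.29, 6.77 and 3.53 in the control. In both, the NaCl arrays lay close together above the control, and neither was called (limma adjusted p = 0.145 and limma adjusted p = 0.111). Control replicate 1 was not well above the background in either, and for GPAT5 only 1 of 3 control arrays was. GPAT5 was called without control replicate 2 (4.57, limma adjusted p = 0.0168). The number of increases was 0 without control replicate 3, 1 without NaCl replicates 2 and 3 and control replicate 1 and 7 without control replicate 2. The root marker BGLU23 was also lowest on control replicate 1, at 6.77, and whether the share of roots had a part in these values was not tested.

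Flavonoid genes, which make sunscreens and anthocyanins, fell in 3 of 13, with a median of -1.76, and 6 of the 13 passed the background filter in 1 group only. Across the leave-one-out fits, 0 of the 3 decreases held, and the number of decreases was 1 without control replicates 1, 2 and 3 and 5 without NaCl replicate 3. LDOX (AT4G22880), of the anthocyanin branch, had log2 signals of 1.33, 4.86 and 1.26 with NaCl, against 6.78, 9.31 and 8.21 in the control, with 1 NaCl array above the background (-5.61, limma adjusted p = 0.0161), and was called in 5 of the 6 fits that left out 1 array and lost without control replicate 3 (limma adjusted p = 0.0518). DFR (AT5G42800), the step before it, had 1.32, 7.37 and 3.07 with NaCl, against 7.58, 11.21 and 9.88 in the control, and was called in 1 of the 6 fits that left out 1 array and lost without NaCl replicates 1 and 3 and control replicates 1, 2 and 3 (limma adjusted p of 0.0642 to 0.123). TT4 (AT5G13930), the first enzyme of the path, had 6.53, 8.02 and 10.14 with NaCl, against 11.51, 11.34 and 9.80 in the control, with 1 overlapping array, and was not called (-2.66, limma adjusted p = 0.0802), while it was called without NaCl replicate 3 (-3.65, limma adjusted p = 0.0210). NaCl replicate 2 lay above the other NaCl arrays in LDOX and DFR. Lignin synthesis had 2 decreases of 18. By the fits on 5 arrays, 1 of the 2 decreases held, and the number of decreases was 1 without control replicate 1. CAD4 (AT3G19450), of the last step to the lignin alcohols, had 9.77, 9.60 and 9.81 with NaCl, against 11.63, 11.31 and 11.63 in the control, and fell by 1.797 (standard error 0.17, limma adjusted p = 0.00244), while PAL1, of the first step, was not called (-0.64, limma adjusted p = 0.123).

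Low-oxygen genes and the clock were on the same arrays. ADH1 (AT1G77120), the alcohol dehydrogenase of fermentation, had log2 signals of 14.65, 15.51 and 14.72 with NaCl, against 9.51, 10.00 and 9.48 in the control, and rose by 5.30 (standard error 0.29, limma adjusted p = 0.000676), and 11 of 15 genes of this response rose. Of the clock, TOC1 (AT5G61380), an evening gene, had 9.20, 9.49 and 9.51 with NaCl, against 7.60, 8.00 and 8.03 in the control, and rose by 1.52 (limma adjusted p = 0.00503), while CCA1 (AT2G46830), a morning gene, had 10.77, 10.83 and 10.31 with NaCl, against 11.11, 11.14 and 10.68 in the control, and overlapped (-0.34, limma adjusted p = 0.282). In all, 7 clock genes rose and 1 fell of 17, and 5 and 1 of these calls held. With 1 array left out, the number of clock increases was 5 to 6 and that of decreases 1 to 2. Of the low-oxygen increases, 11 held.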

How the data were processed

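RNA of whole seedlings was measured on one-colour Agilent arrays, and the 3 NaCl and 3 control arrays were analysed here. Per the file headers, the authors read the scans with Agilent Feature Extraction 10.7.3.1, which subtracted the local background and detrended each array, and deposited the intensity of every spot, with no normalization between arrays, beside marks of 0 or 1 for spots that were non-uniform, outlying, saturated or well above the background. The deposited table of processed values was not used, because its NaCl columns follow another distribution than its control columns, so that its scale between the groups is not known.

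From the processed signals, control spots and marked non-uniform or outlying spots were removed, and log2 values were quantile-normalized over the 6 arrays. A probe was kept where all 3 arrays of a group were well above the background, and the brightest kept probe stood for its gene. Probe names came from the array files, and 25426 loci were matched to the TAIR10.1 reference table. Genes were tested with limma 3.58.1 in R 4.3.3 (lmFit and eBayes, all 22594 genes, Benjamini-Hochberg adjustment) and called where the adjusted p was under 0.05 and the groups differed at least 2-fold. The fit was tested on simulated data with known changes. A spot left out on 1 array is missing in the fit, and the array numbers given with a value say how many were measured. Where every array of a group was not well above the background, the bound "at least N-fold" sets the mean of the bright group against the dim group's mean of, per array, the higher of the gene's own signal and the lowest signal well above the background. A permutation of 3 against 3 arrays has 10 splits and cannot give a p below 0.1, so none was used. The 3 arrays per group limit the precision of every value.

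The members, gene lists and families were chosen with earlier results of these data known. A locus entered its list only if the reference gives it that name, which left out 34 loci, and families for which the reference names too few genes were left out. Named genes were the anchors chosen for each list whatever their values, the called genes with the largest changes and no overlap between groups (up to 4 in each direction per list) and the 12 largest increases and decreases of all genes. For low oxygen and the clock only anchors are named. Of the rest, values are printed mostly for genes whose calls were made with each array left out. Promoter motifs were not analysed here. The alternatives were other scalings, background corrections, filters, probes, tests and thresholds, array weights, all 9 arrays of the study in 1 fit, a replicate block and leaving out each array.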

Additional observations from a re-analysis of the deposited data

How the results depend on the processing

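The dimmest probe of each gene called 1 gene in the opposite direction, and the other alternatives called 0. Decreases outnumbered increases in the main comparison, while increases outnumbered decreases with 75th percentile scaling, with normexp background correction, at a fold change of at least 4 and under the adjusted t-test. The numbers of genes, upregulated and downregulated, were 1454 and 1428 with normexp background correction, 912 and 806 at a fold change of at least 4, and 341 and 253 under the t-test of the methods after Benjamini-Hochberg adjustment, against 1834 and 2416 with its unadjusted p. Without 1 array they lay between 1384 and 2405 and between 1598 and 3232, and the lowest of both were those without NaCl replicate 2. Scaling by the 75th percentile gave 2455 and 2250, so that 52.2% of the calls were increases, against 2089 and 2727 (43.4%) with quantiles. With no scaling they were 1736 and 3788, or 31.4%.

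With the replicate number as a block there were 1622 upregulated and 1786 downregulated genes. Arrays of the same number did not deviate together (correlations of -0.13, 0.0496 and -0.122), so the numbers were not taken to pair the samples.

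Of the list medians, 1050 values under the alternatives moved by less than the spread between the NaCl arrays, 131 moved further and 6 reversed. A change of sign counted as reversed only where the main median was larger than that spread, so medians nearer to zero could change sign uncounted. The median of the salicylic acid list, for example, lay between -0.325 and 0.147 with 1 array left out. The median of carbon starvation was -0.145 without scaling and lay between -0.0312 (without control replicate 1) and 0.348 with 1 array left out, that of brassinosteroid -0.231 with the mean over probes and -0.508 with the dimmest probe, that of iron -0.0817 with the dimmest probe and that of cytosolic glycolysis 0.0433 with array weights. Of the named genes, 5128 values kept direction and call, 608 lost the call, 51 gained one and 5 reversed. The reversed ones rested on the dimmest probe, with log2 fold changes of -1.14 for PIP2;1, 1.17 for APX1, -1.01 for GAPC1, -0.0371 for FER1 and 1.39 for UGT85A4. Among the genes given by name, calls were lost with normexp background correction for ACS4, CBL10, COBL9, FUM1, GA20OX1, GSTU2, HSP101, MYB36, NCED9, PBE1, RD29B, RPN5B and SAUR34, without scaling for ABI1, ASN1, GA20OX1, KUP6 and NYE1, with 75th percentile scaling for DFR and GA20OX1, without the filter on dim probes for ASN1, CYP79B2, DFR, GA20OX1, HSP101, JAZ9, LOX2, MYB36, NYE1 and SPX1, with the mean over probes for ASN1, JAZ9, PME3 and TPS11, with the dimmest probe for FLA15, MDAR6 and MYB36, and with the replicate block for ARR5, ASN1, CER1, CHLH, GA20OX1, HSP101, JAZ9, NYE1, ORA59, PSBS, SPX1 and TPS11. Calls were also lost with array weights for DFR, JAZ9, LOX2 and NYE1, and with marked spots kept for ARR5 and DFR. A robust version of the limma fit lost DFR and JAZ9, and the fit on all 9 arrays lost ACO1 and GA20OX1. Requiring all 6 arrays well above the background left ACS4, BGLU30, COBL9, DFR, GSTU2, HSP17.4, LDOX, MYB36, MYB76, NCED9, RD29B, RRTF1, SAG12 and SAUR34 untested or uncalled. Another kept probe of a called gene had the same sign in 1039 of 1083 genes. Fold changes of genes near the background are limited by dim signals, and slide, scan and treatment cannot be told apart under any of these alternatives.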

Other observations

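Several large protein families and housekeeping processes had few calls. Of 39 tested proteasome subunits, 1 was upregulated and 2 were downregulated, but in 28 every NaCl array lay below every control array, where 30.3% of all genes did so, with a list median of -0.37 on the log2 scale. Under the omission of 1 array, 0 of 1 increase and 2 of the 2 decreases held, and the number of increases was 0 without NaCl replicates 1, 2 and 3 and control replicates 1 and 2. The subunit genes RPN5B (AT5G64760), with log2 signals of 6.61, 6.67 and 7.19 with NaCl, against 8.67, 8.03 and 8.25 in the control, and PBE1 (AT1G13060), with 7.61, 7.73 and 7.35 with NaCl, against 8.81, 9.07 and 8.73 in the control, had log2 fold changes of -1.5 and -1.304 (limma adjusted p = 0.00977 and limma adjusted p = 0.00620), and both calls were lost with normexp background correction. No gene was called among 37 cytosolic ribosomal proteins (median -0.15), 9 genes of ribosome biogenesis, 15 tubulins and 8 genes of cytosolic glycolysis by limma. At an unadjusted p under 0.05, 3 of the ribosomal proteins were higher and 2 lower, against 0 and 2 genes of ribosome biogenesis, 1 and 3 tubulins and 1 and 2 genes of glycolysis, and the t-test of the methods called 1 ribosomal protein gene lower. Without NaCl replicate 3, 4 ribosomal protein genes, 2 tubulin genes, 1 brassinosteroid gene and 1 ribosome biogenesis gene were called lower, and without NaCl replicate 1, 2 tubulin genes and 1 glycolysis gene were called higher. GAPC1 (AT3G04120), the glycolytic dehydrogenase, had 15.32, 15.62 and 15.41 with NaCl, against 15.75, 15.17 and 15.44 in the control, with overlapping groups. In the tricarboxylic acid cycle 2 of 14 genes fell, and FUM1 (AT2G47510), the mitochondrial fumarase, had 7.30, 7.05 and 7.18 with NaCl, against 8.87, 8.22 and 8.41 in the control, and fell by 1.32 (standard error 0.21, limma adjusted p = 0.00883), without overlap but not called with normexp background correction, while the citrate synthase gene CSY4 overlapped (-0.21, limma adjusted p = 0.391). On any 5 of the arrays, the number of decreases was 1 without NaCl replicates 2 and 3 and control replicate 1.

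Among histones, 3 rose and 1 fell of 29. If 1 array was dropped, 2 of the 3 increases and 0 of 1 decrease held, and the number of decreases was 0 without NaCl replicates 1 and 2 and control replicates 1, 2 and 3 and 10 without NaCl replicate 3. HIS1-3 (AT2G18050), a linker histone known to respond to drought, had log2 signals of 13.20, 13.69 and 13.54 with NaCl, against 7.66, 8.30 and 8.45 in the control, and HTA9 (AT1G52740), a variant of histone H2A, had 15.99, 15.84 and 15.80 with NaCl, against 14.32, 14.24 and 14.29 in the control. Both were above the control on every NaCl array, with increases of 5.34 (standard error 0.26, limma adjusted p = 0.000538) and 1.595 (standard error 0.14, limma adjusted p = 0.00222). Cytochrome P450 genes had 22 increases and 20 decreases of 138, of which 8 and 10 held with 1 array left out. Of the 138, 19 passed the background filter in 1 group only. The count of increases was 10 without NaCl replicate 2 and control replicate 3, and that of decreases was 11 without control replicate 1. CYP71B36 (AT3G26320) had 4.99, 4.15 and 3.79 with NaCl, against 9.01, 8.43 and 9.04 in the control, and fell by 4.52 (limma adjusted p = 0.00161), and CYP705A24 (AT1G28430) had 8.87, 9.16 and 9.27 with NaCl, against 6.02, 6.59 and 6.51 in the control, and rose by 2.73 (limma adjusted p = 0.00170). UDP-glycosyltransferases had 8 increases and 4 decreases of 46. With each array left out in turn, 3 of the 8 increases and 3 of the 4 decreases held, and the number of increases was 3 without NaCl replicate 2. UGT89B1 (AT1G73880), which adds sugar to flavonols, had 11.65, 11.55 and 11.23 with NaCl, against 8.97, 8.89 and 8.43 in the control, and rose by 2.71 (limma adjusted p = 0.00168), and UGT85A7 (AT1G22340) had 5.61, 5.69 and 5.06 with NaCl, against 7.83, 8.16 and 7.64 in the control, and fell by 2.42 (limma adjusted p = 0.00289). Of 8 germin-like genes GER1 (AT1G72610) fell, with 14.04, 14.15 and 15.03 with NaCl, against 16.69, 16.30 and 16.11 in the control (-1.96, limma adjusted p = 0.00896), and of 13 fasciclin-like arabinogalactan proteins FLA15 fell by 1.66 (limma adjusted p = 0.00876).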
